A study of Mus musculus with 6 samples.

Results

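The UDP-glucuronosyltransferases of the 2 family form the subject of this section: Ugt2a3, Ugt2b1, Ugt2b5, Ugt2b34, Ugt2b35, Ugt2b36, Ugt2b37 and Ugt2b38, that is 8 of the 55357 genes in the count table, found by symbol after the Ensembl identifiers were matched to the GENCODE annotation of GRCm39. The family was chosen by a measured value: Ugt2b35 mRNA was higher after esculetin in these same libraries. Member differences between the groups are therefore given as a description: no p-value is printed for a member, and counts of members past a threshold are set beside the share of all genes, with nothing read from them. All 8 passed the filter on low counts, which 14433 genes passed, and each had at least 73 reads in every library, so that none passed through 1 group alone.

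Liver mRNA was sequenced from wild-type male C57BL6/J mice aged 8 to 9 weeks. Every animal received a daily gavage for 7 days and was switched from a control diet (10% of calories as fat, 4 days) to a high-fat diet (HFD, 60% of calories as fat) for the last 3 days. The vehicle group received 2.5% Tween-80 alone, and the esculetin group received the plant coumarin esculetin, a catechol, in that vehicle. The dose label of the esculetin samples is 180 in their titles and count columns and 90 mg/kg/d in their treatment field. Only the name of the treatment is therefore used here. Each group has 3 libraries, and by the study's supplementary text each sample holds the livers of 2 mice. A p-value in this design measures the spread between such pools, and no mouse without the HFD is in the comparison.

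Glucuronidation attaches glucuronic acid, taken from UDP-glucuronic acid, to phenols, steroids, bile acids, bilirubin and drugs, which makes them water-soluble and ready for export into bile or blood. The enzymes sit in the membrane of the endoplasmic reticulum and face its lumen. Hepatocytes are the richest source of the UGT2B enzymes, which are known for conjugating steroids and many drugs, and the human counterpart of Ugt2a3 conjugates bile acids. Esculetin itself carries the kind of hydroxyl groups that UGT and sulfotransferase enzymes conjugate.

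The genes lie in a row of 534 kb on mouse chromosome 5 (GRCm39). Each encodes a protein of 529 to 534 residues from 6 exons of its canonical transcript. Ugt2b35 is the lone member on the plus strand, and the other 7 are on the minus strand. The 100 bases before the RefSeq transcript start of each member are printed here. The members' promoters resemble each other to very different degrees, and whether this bears on the measured differences was not tested. The sequences are from the RefSeq promoter table (GRCm38.p6), which held all 8 members, and each was placed in GRCm39 by an exact match, 1 place for each. All are written 5′ to 3′ on the strand of the gene, and they lie at chr5:87148619-87148718 (plus strand), chr5:87240415-87240514, chr5:87288200-87288299, chr5:87572063-87572162, chr5:87402648-87402747, chr5:87074363-87074462, chr5:87054797-87054896 and chr5:87485055-87485154 (minus strand). Capitals mark matches to GTTANNNNNTAAC, a spaced palindrome, and in Ugt2a3 they mark copies of GTTAAT.
Ugt2b35: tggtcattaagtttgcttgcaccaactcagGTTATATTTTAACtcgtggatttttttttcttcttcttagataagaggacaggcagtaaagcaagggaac
Ugt2b36: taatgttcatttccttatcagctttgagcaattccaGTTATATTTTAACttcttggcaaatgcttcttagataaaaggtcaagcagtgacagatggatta
Ugt2b5: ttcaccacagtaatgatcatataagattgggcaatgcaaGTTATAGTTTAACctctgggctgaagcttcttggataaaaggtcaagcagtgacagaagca
Ugt2b38: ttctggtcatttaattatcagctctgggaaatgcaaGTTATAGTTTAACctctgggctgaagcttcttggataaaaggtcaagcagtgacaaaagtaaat
Ugt2b37: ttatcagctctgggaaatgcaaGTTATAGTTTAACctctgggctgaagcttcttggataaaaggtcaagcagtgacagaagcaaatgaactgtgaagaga
Ugt2b1: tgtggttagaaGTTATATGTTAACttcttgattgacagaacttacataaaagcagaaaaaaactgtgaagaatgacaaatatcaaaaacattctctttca
Ugt2b34: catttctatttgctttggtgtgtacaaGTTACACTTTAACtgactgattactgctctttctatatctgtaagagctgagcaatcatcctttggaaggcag
Ugt2a3: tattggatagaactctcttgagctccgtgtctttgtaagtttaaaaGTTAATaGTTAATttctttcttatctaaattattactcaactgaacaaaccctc

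The spaced motif was in 7 of the 8 promoters and in 0.332% of the 32544 mouse promoters of the same 300-base length (250 bases before to 50 after the start). It was searched on both strands, and it was picked after the members' promoters had been looked at. Some of these promoters are near copies of each other, so the 7 matches are not independent. The motif began 89 to 61 bases before the start. The 13 bases were the same, GTTATATTTTAAC, in Ugt2b35 and Ugt2b36, and the same, GTTATAGTTTAAC, in Ugt2b5, Ugt2b37 and Ugt2b38. Ugt2b1 had GTTATATGTTAAC and Ugt2b34 had GTTACACTTTAAC. Ugt2a3 had GTTAAT at 2 places, letters that 7.14% of all promoters hold at least once.

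Other letters were counted on both strands of the same windows. AGGTCA, a half-site of many nuclear receptors, was in 5 members (Ugt2b5, Ugt2b35, Ugt2b36, Ugt2b37 and Ugt2b38) and in 16.2% of all promoters. TTGCNNAA, as bound by C/EBP factors, was in 4 members (Ugt2a3, Ugt2b1, Ugt2b5 and Ugt2b36) and in 10.8% of all promoters. The letters GCGTG (core of the Ah receptor's element, 32.6% of all promoters), TGACNNNGC (core of the NRF2 element, 12.4%) and TATAAA (13.6%) were in 0 members. These are matches of letters within a short window and say nothing of binding.

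By sequence the family falls into a close cluster and outlying members. Coding sequences of Ugt2b5 and Ugt2b38 were 97.0% identical, those of Ugt2b5 and Ugt2b37 94.7%, and those of Ugt2b37 and Ugt2b38 94.1%. Ugt2b35 was nearest to Ugt2b36, with 88.5% identical bases and 84.3% identical residues in the encoded proteins. Ugt2a3 stood farthest off, at 66.4% to 69.7% identity with the other 7. In the promoter windows Ugt2b37 and Ugt2b38 were 95.7% identical over 282 aligned bases, Ugt2b5 and Ugt2b38 90.0% over 290, and Ugt2b35 and Ugt2b36 73.4% over 128.

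**Figure D1:**
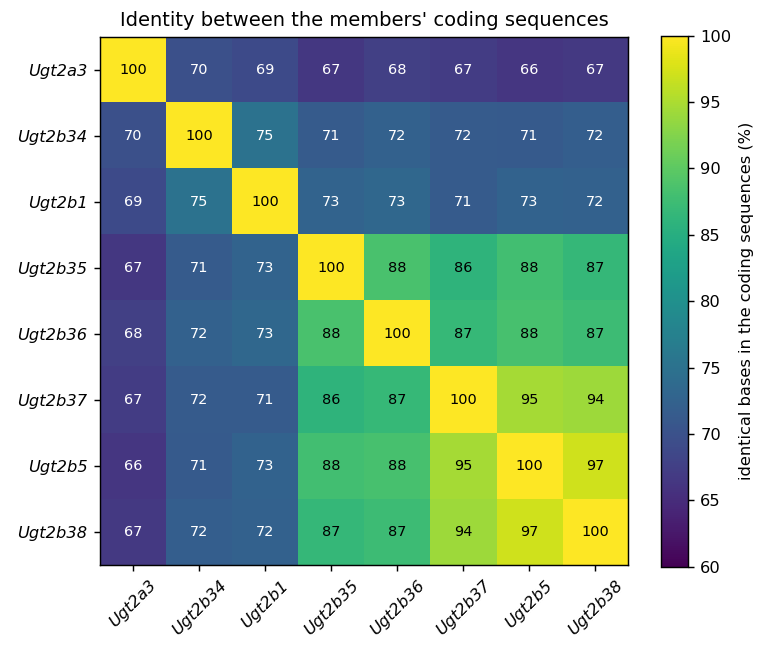
Identity of the members' coding sequences in percent of aligned bases, with each member on both axes and the colour scale running from 60 to 100. The bright block at the lower right holds Ugt2b35, Ugt2b36, Ugt2b37, Ugt2b5 and Ugt2b38, with Ugt2b5 and Ugt2b38 at 97.0%, while Ugt2a3 stays between 66.4% and 69.7%.

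Such likeness bears on counting. Of the 150-base windows in the exons of Ugt2b5, 29.2% (488 of 1669) recur elsewhere in the genome, 334 of them in Ugt2b38 and 154 at chr7:9195930-9196232, where the annotation has no gene. Of those of Ugt2b38, 31.1% (334 of 1075) recur, all in Ugt2b5. No window of this length recurred for the other 6 members. How reads with several places were counted is not given in the sources used here, so the levels of Ugt2b5 and Ugt2b38 are uncertain for the reads of those windows.

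Per length of exon, the levels in vehicle livers spanned about 2 orders of magnitude. Mean levels, as TMM-normalised CPM (reads per library size, after the size was corrected by the TMM factor) per kb, were 420 ± 39.6 for Ugt2b5, 351 ± 95.8 for Ugt2b1, 257 ± 6.53 for Ugt2b36, 174 ± 11.1 for Ugt2a3, 154 ± 15.7 for Ugt2b34, 57.8 ± 2.67 for Ugt2b35, 39.4 ± 13.2 for Ugt2b38 and 4.07 ± 2.64 for Ugt2b37 (SD, n = 3 libraries). Of the 7 pairs of neighbours in this order, Ugt2b5 with Ugt2b1 and Ugt2a3 with Ugt2b34 overlapped between libraries and the other 5 did not. Among 14389 tested genes with a known length, Ugt2b5 was number 85 by this level, Ugt2b1 number 98, Ugt2b35 number 520 and Ugt2b37 number 4428.

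The order was the same in the esculetin group. There Ugt2b5 (556 ± 18.0 CPM per kb) lay above Ugt2b1 (328 ± 46.0) without overlap, while Ugt2b1 overlapped Ugt2b36 (322 ± 8.71). Ugt2b35 reached 87.7 ± 0.156 CPM per kb and Ugt2b38 25.8 ± 1.90. As a share of the summed level per kb, Ugt2b5 made up 28.9% ± 2.81 of the family in vehicle and 33.2% ± 0.689 in esculetin libraries, and Ugt2b35 3.98% ± 0.402 and 5.24% ± 0.246 (SD, n = 3).

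**Figure D2:**
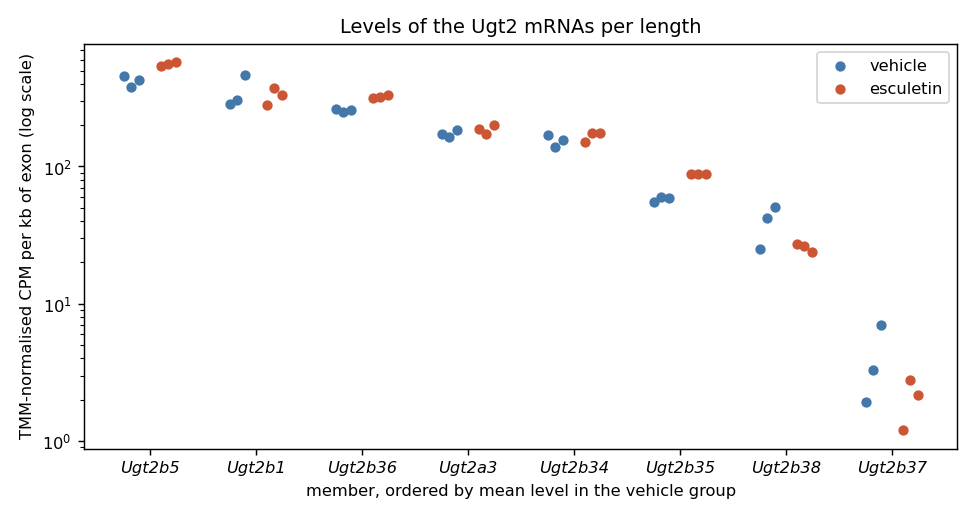
Levels of the members per length in each library (1 point a library, 3 in each group; vertical axis TMM-normalised CPM per kb of exon, log scale), ordered by the vehicle mean. Ugt2b5 is the highest in both groups, at 420 and 556 CPM per kb on average, and Ugt2b37 the lowest, at 4.07 and 2.05.

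Members differed in direction between the groups: Ugt2b35, Ugt2b5 and Ugt2b36 were higher in all 3 esculetin libraries than in any vehicle library, Ugt2a3, Ugt2b34 and Ugt2b1 overlapped between the groups with small differences, and Ugt2b38 and Ugt2b37 had lower means that also overlapped. In bulk liver, fewer cells of a type and less RNA per cell cannot be told apart. Values below are CPM normalised by TMM, which compares libraries within a gene, and log2 fold changes are from edgeR's quasi-likelihood fit across all genes.

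Ugt2b35 read 235, 256 and 253 CPM in vehicle replicates 1 to 3 and 376, 377 and 377 CPM in the esculetin replicates. No vehicle library came near the esculetin libraries, and those 3 lay within a factor of 1.003 of each other. The log2 fold change was 0.60 ± 0.07 (SE), or 1.52-fold.

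Ugt2b5, the most abundant member, read 1138, 942 and 1057 CPM in vehicle and 1337, 1389 and 1427 CPM in esculetin libraries. The groups did not overlap. Its log2 fold change was 0.40 ± 0.09, with the limit on shared windows given above.

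Ugt2b36 read 840, 798 and 816 CPM in vehicle and 999, 1024 and 1054 CPM in esculetin libraries. Here too every esculetin library was higher, by a log2 fold change of 0.33 ± 0.07. None of its 150-base windows recurs elsewhere.

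Ugt2a3 read 403, 386 and 437 CPM in vehicle and 440, 406 and 475 CPM in esculetin libraries, a log2 fold change of 0.11 ± 0.09. Ugt2b34 read 731, 596 and 677 CPM against 653, 755 and 755 CPM, a log2 fold change of 0.11 ± 0.10. For both genes the groups overlapped, and the difference was about the size of its standard error. With one library left out it ran from 0.05 to 0.16 for Ugt2a3 (without esculetin replicates 3 and 2) and from 0.04 to 0.18 for Ugt2b34 (without vehicle replicates 2 and 1).

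Ugt2b1 was uneven within the vehicle group. It read 854, 919 and 1379 CPM in vehicle and 834, 1108 and 998 CPM in esculetin libraries, with a log2 fold change of -0.10 ± 0.17. Vehicle replicate 3 was the highest of the 6, and without it the log2 fold change was 0.15, of the other sign. Without esculetin replicate 1 it was 0.004.

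Ugt2b38 read 47.5, 79.4 and 96.6 CPM in vehicle and 51.6, 50.1 and 44.8 CPM in esculetin libraries. Vehicle replicate 1 lay among the esculetin libraries, and the other vehicle libraries lay above them. The log2 fold change was -0.61 ± 0.21, which moved to -0.38 without vehicle replicate 3 and to -0.85 without vehicle replicate 1.

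Ugt2b37, the scarcest member, read 3.64, 6.20 and 13.3 CPM in vehicle and 2.27, 5.27 and 4.12 CPM in esculetin libraries, that is 73 to 365 reads a library. The log2 fold change was -0.98 ± 0.44. It was -0.34 without vehicle replicate 3, the highest library, and was -1.32 without vehicle replicate 1.

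**Figure D3:**
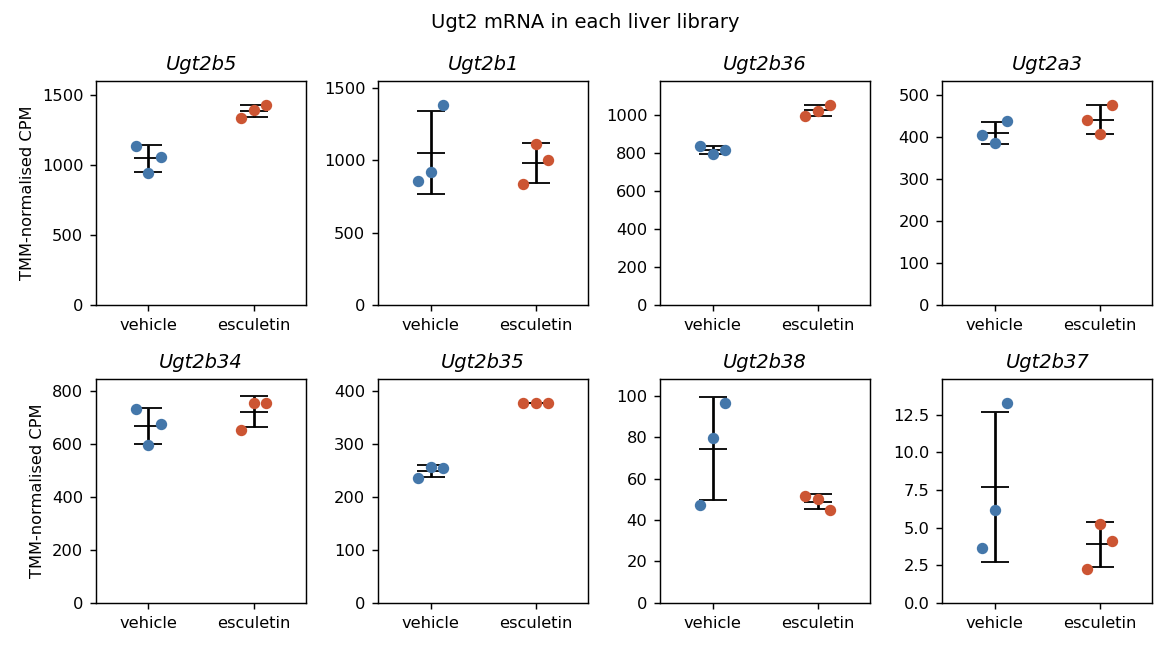
Each member's mRNA in each library (points, TMM-normalised CPM, linear axis from 0; bars mark the mean ± SD of 3 libraries). The esculetin points of Ugt2b5, Ugt2b36 and Ugt2b35 all lie above the vehicle points, and the vehicle points of Ugt2b1, Ugt2b38 and Ugt2b37 spread widely, with replicate 3 (the rightmost point) at the top.

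Counted by the thresholds of the study, an unadjusted p under 0.05 with a fold change over 1.5, 3 of the 8 members were called, beside 3.13% of all genes tested. Ugt2b35 was the 1 called higher (background 1.37%), and Ugt2b37 and Ugt2b38 were the 2 called lower (background 1.76%). Ugt2b37 was called in 7 of 14 fits, lost among others with DESeq2, and Ugt2b38 in 9 of 14, lost among others with the replicate block. Both were lost with limma-voom. With p alone, 5 members passed (background 11.9%), Ugt2b5 and Ugt2b36 being added. After Benjamini-Hochberg adjustment over all genes, 6 genes passed 0.05, or 0.0416% of all. Ugt2b35, by whose rise the family was chosen, was the 1 member among them. Libraries did not overlap, esculetin being higher, for 3 members (background 9.2%), and esculetin was lower without overlap for 0 members (background 8.24%). The median log2 fold change of the 8 was 0.11, and that of all genes tested was -0.01.

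Ugt2b35 stood close to the fold threshold. Its fold change was 1.52 against a threshold of 1.5, and it slipped under it when libraries were scaled to total counts (log2 fold change 0.58) or without vehicle replicate 1 (0.56). As a description of that call, from which nothing is read, it was past the adjusted threshold in 9 of 14 fits, and was not with the replicate block, without vehicle replicate 2 or without each esculetin replicate in turn. Over all the fits its log2 fold change stayed between 0.56 and 0.63.

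Summed over the family, the difference between the groups was small. The 8 members together read 4252, 3982 and 4730 CPM in vehicle and 4694, 5115 and 5136 CPM in esculetin libraries, a ratio of means of 1.15. Esculetin replicate 1 lay below vehicle replicate 3, so that the groups overlapped. The sum of Ugt2b5, Ugt2b35 and Ugt2b36 went from 2112 ± 109 to 2787 ± 72.9 CPM, and that of the other 5 from 2210 ± 342 to 2195 ± 186 CPM (SD, n = 3). These subsets follow the values themselves and carry no test.

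Spread within a group differed greatly among the members. In vehicle libraries the coefficient of variation was 2.54% for Ugt2b36 and 4.62% for Ugt2b35 but 27.3% for Ugt2b1, 33.5% for Ugt2b38 and 64.9% for Ugt2b37, where the median over all genes tested was 11.5%. In esculetin libraries it was 0.178% for Ugt2b35, 7.35% for Ugt2b38 and 39.0% for Ugt2b37, with a median over all genes of 11.7%. With 3 libraries a group such coefficients are themselves imprecise.

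The summed cholangiocyte markers (Krt19, Krt7, Epcam, Sox9 and Spp1) read 39.5, 62.7 and 80.3 CPM in vehicle and 45.6, 30.3 and 42.2 CPM in esculetin libraries, so that vehicle replicates 2 and 3 were high for these as for Ugt2b38. Of the 5, Spp1 had an unadjusted p under 0.05, and none of the 5 was at 0 counts. The summed Kupffer cell markers (Clec4f, Vsig4, Cd5l, Timd4, Adgre1 and Marco) read 356 CPM in vehicle replicate 3, the library highest for Ugt2b1, Ugt2b37 and Ugt2b38, and 261 to 279 CPM in the other 5. None of the 6 was at 0 counts. The part of bile duct and Kupffer cells in the Ugt2b1, Ugt2b37 and Ugt2b38 values was not tested. Hepatocyte markers (Alb, Ttr, Cps1, Hnf4a, Apob and Tat) summed to 79447 to 83320 CPM in vehicle and 76328 to 82359 CPM in esculetin libraries, so that the labelled tissue shows its defining markers, and 0 of the 6 had a p under 0.05. The summed levels of the other 8 marker lists (Kupffer, endothelial, stellate, lymphocyte, red cell, adipocyte, exocrine pancreas and intestine) also overlapped between the groups, and of their genes Des, Cd79a and Alas2 had an unadjusted p under 0.05. Lep, Prss2, Cpa1, Pnlip, Amy2a5, Cdx2 and Lct were at 0 counts in every library.

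Libraries held 27957713 to 31889710 counted reads in the vehicle group and 32883985 to 34920922 in the esculetin group, every esculetin library being deeper, with TMM factors of 0.979 to 1.02. Mitochondrial genes took 7.31% to 7.62% of vehicle and 6.87% to 7.26% of esculetin reads. The part of depth and of this share in the results was not tested.

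Position along the chromosome and difference between groups were set side by side. The 3 members with higher, non-overlapping esculetin libraries, Ugt2b35 (chr5:87148701-87161742), Ugt2b36 (chr5:87212668-87240422) and Ugt2b5 (chr5:87272226-87288211), are consecutive members within 140 kb, though Ugt2b35 is read from the opposite strand. Ugt2b34 (chr5:87037626-87054814) and Ugt2b1 (chr5:87064497-87074389) lie on one side. Ugt2b37 (chr5:87388352-87402663), Ugt2a3 (chr5:87472734-87485055) and Ugt2b38 (chr5:87557801-87572062) lie on the other, the first of them 100 kb beyond Ugt2b5.

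Of the 42 annotated genes of the count table in this span and 200 kb on either side, 18 passed the filter on low counts, 10 of them not members. Of these 10, 2 had an unadjusted p under 0.05, Gm18635 and Sult1d1, beside 11.9% of all genes tested. Gm18635, a processed pseudogene on the same strand as Ugt2b35 with 276 bases between them, read 2.82, 4.02 and 3.75 CPM in vehicle and 6.84, 7.95 and 6.39 CPM in esculetin libraries. Its log2 fold change was 0.997 ± 0.180 (edgeR's quasi-likelihood test, adjusted p = 0.132), past the unadjusted p and fold thresholds. Over its alternatives the adjusted p ranged from 0.000157 (no filter on low counts) to 0.47 (without vehicle replicate 2), and it also passed 0.05 with DESeq2 (0.000665). The library kit does not mark strand, and the part of reads running on from Ugt2b35 was not tested.

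The other 8 neighbours had log2 fold changes of -1.08 (Gm20121) to 0.25 (Sult1b1, a sulfotransferase). Ythdc1, a reader of methylated adenosine at the near end, read 37.3 to 39.9 CPM in vehicle and 34.5 to 40.0 CPM in esculetin libraries. Gm7652, an unprocessed pseudogene between Ugt2a3 and Ugt2b38, read 1.87, 2.76 and 9.22 CPM in vehicle and 1.80, 2.25 and 7.67 CPM in esculetin libraries, high in replicate 3 of both groups. The pseudogenes Gm20121, Gm5869, Idi1-ps2 and Gm21049 and the unclassified Gm42796 were all at 3.22 CPM or less in every library.

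**Figure D4:**
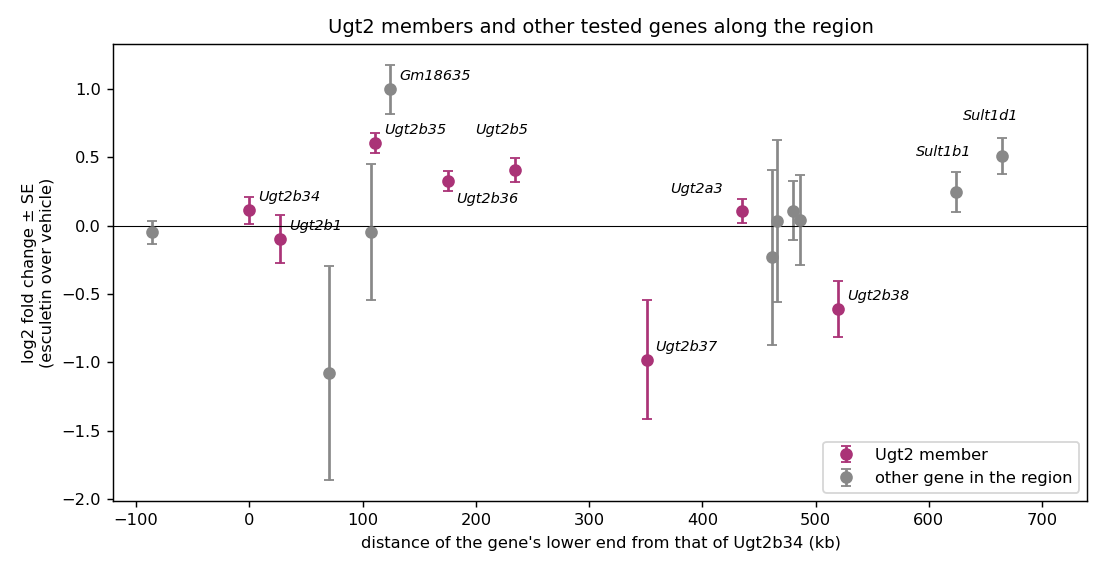
Log2 fold change (esculetin over vehicle, error bars ± SE) of the 8 members and the 10 other tested genes by distance in kb along the region, counted from the lower end of Ugt2b34. Ugt2b35 (0.60), Ugt2b36 (0.33) and Ugt2b5 (0.40) stand next to each other above 0, and Ugt2b37 (-0.98) and Ugt2b38 (-0.61) lie farther along below it.

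Likeness of pattern was measured as the mean absolute difference of log2 CPM over the 6 libraries, each gene centred on its own mean. Ugt2b5 and Ugt2b36 were each other's nearest member (0.057), and Ugt2b35 was nearest to Ugt2b5 (0.129). Ugt2b37 was nearest to Ugt2b38 (0.385) and Ugt2b38 to Ugt2b1 (0.288). Outside the family, the 5 genes most like Ugt2b35 were Zfp36l2 (0.062), Scand1 (0.068), 4732465J04Rik (0.071), Irf2bpl (0.073) and Mrpl54 (0.077).

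Those 5 genes lie on other chromosomes. Zfp36l2, which encodes an mRNA-decay protein, read 25.3, 22.8 and 25.8 CPM in vehicle and 37.3, 38.2 and 36.8 CPM in esculetin libraries. Being picked for likeness to a gene that differs between the groups, all 5 had higher esculetin libraries by construction.

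Genes that supply, accompany or follow glucuronidation were taken from a list of 46 by role, of which 41 passed the filter. At adjusted p under 0.05, edgeR called 0 of the 41, beside 6 of all genes tested, and limma-voom 0, beside 5. DESeq2 called 4 (Abcc3, Sult1a1, Sult1d1 and Ugdh, all higher), beside 193 of all genes. With the unadjusted p, 9 were higher and 1 was lower, beside 11.9% of all genes tested, and with the fold threshold added Abcc3 alone was called, beside 3.13%. Median log2 fold change over the 41 was 0.09.

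For the supply of UDP-glucuronic acid, Ugdh, the dehydrogenase that makes it from UDP-glucose, read 122, 100 and 107 CPM in vehicle and 137, 145 and 143 CPM in esculetin libraries. No library overlapped, and the log2 fold change was 0.37 ± 0.09 (adjusted p = 0.170 by edgeR). Ugp2, which makes UDP-glucose, had a log2 fold change of 0.24 ± 0.09 (adjusted p = 0.351), with overlapping libraries. Pgm1 (0.14 ± 0.09) and Pgm2 (-0.16 ± 0.16), the phosphoglucomutases before it, had an unadjusted p over 0.05.

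For the export of glucuronides, Abcc3, the transporter MRP3 that moves them from the hepatocyte into blood, read 110, 74.6 and 66.1 CPM in vehicle and 160, 208 and 195 CPM in esculetin libraries. The groups did not overlap, with a log2 fold change of 1.17 ± 0.18 and an adjusted p of 0.0771 by edgeR. Over its alternatives the adjusted p ranged from 3.19e-16 (no filter on low counts) to 0.47 (without vehicle replicate 2), and it passed 0.05 also with DESeq2 and without vehicle replicate 1. Abcc2, the transporter MRP2 that exports into bile, read 590 to 606 CPM in vehicle and 557 to 650 CPM in esculetin libraries, a log2 fold change of 0.01 ± 0.08. The other 3 of this list, Abcc4, Slco1a1 and Slco1b2, had log2 fold changes of -0.13 to 0.07. Of these, Slco1a1, an uptake transporter, read 1061, 1080 and 1203 CPM in vehicle and 1040, 987 and 1038 CPM in esculetin libraries, lower without overlap.

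Among transcription factors known for UGT genes, 3 of 10 had an unadjusted p under 0.05, beside 11.9% of all genes tested. Nr1i2, the pregnane X receptor, read 76.3, 78.7 and 73.7 CPM in vehicle and 93.8, 90.3 and 97.7 CPM in esculetin libraries, a log2 fold change of 0.30 ± 0.07 (adjusted p = 0.172 by edgeR). Nr1i3, the constitutive androstane receptor, had a log2 fold change of 0.39 ± 0.14 (adjusted p = 0.345), and its libraries did not overlap. Without vehicle replicate 3, its lowest library, the value was 0.23. Pou2f1, the octamer-binding factor known as OCT1, read 9.29 to 10.2 CPM in vehicle and 5.93 to 8.18 CPM in esculetin libraries, a log2 fold change of -0.45 ± 0.15 (adjusted p = 0.281). Hnf4a, a hepatocyte factor, read 440 to 588 CPM in vehicle and 512 to 585 CPM in esculetin libraries and overlapped between the groups.

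The UGT1 enzymes share their last exons, and 56.6% to 77.2% of the exon bases of each gene are also annotated to another UGT1 gene, so their counts rest on the unshared part if reads in shared exons were dropped. None of the 7 tested had an unadjusted p under 0.05, and log2 fold changes ran from -0.56 ± 0.79 (Ugt1a10) to 0.55 ± 0.91 (Ugt1a7c). Ugt1a1, the enzyme of bilirubin conjugation, read 37.7 to 47.5 CPM in vehicle and 41.6 to 49.4 CPM in esculetin libraries. Of the remaining UGT genes, Ugt3a2 had a log2 fold change of 0.23 ± 0.10 (adjusted p = 0.383) and Ugt3a1 0.03 ± 0.08. Ugt2a1 and Ugt2a2, relatives of Ugt2a3 that overlap each other on the same chromosome, had 0 counts in all 6 libraries, which allows a joint level of up to 0.0158 CPM for counting error only, and reads in the exons they share may have gone uncounted.

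Sulfation competes for the same phenols. Sult1a1, the phenol sulfotransferase, read 261, 207 and 215 CPM in vehicle and 309, 331 and 309 CPM in esculetin libraries, a log2 fold change of 0.47 ± 0.10 (adjusted p = 0.136 by edgeR). Sult1d1, the catecholamine sulfotransferase beyond the end of the Ugt2 row, had a log2 fold change of 0.51 ± 0.13 (adjusted p = 0.203), again without overlap. Papss2, which makes the sulfate donor, had 0.32 ± 0.11 (adjusted p = 0.293), with overlap, and Papss1, which makes it too, had -0.02 ± 0.11.

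The list for transport of UDP-sugars held Slc35b1, Slc35b4, Slc35d1 and Slc35d2. That of genes linked to the removal of glucuronic acid held Gusb, Ces1e and Abhd10. No gene of either list had an unadjusted p under 0.05. Their log2 fold changes lay between -0.07 (Gusb, beta-glucuronidase) and 0.16 (Ces1e).

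**Figure D5:**
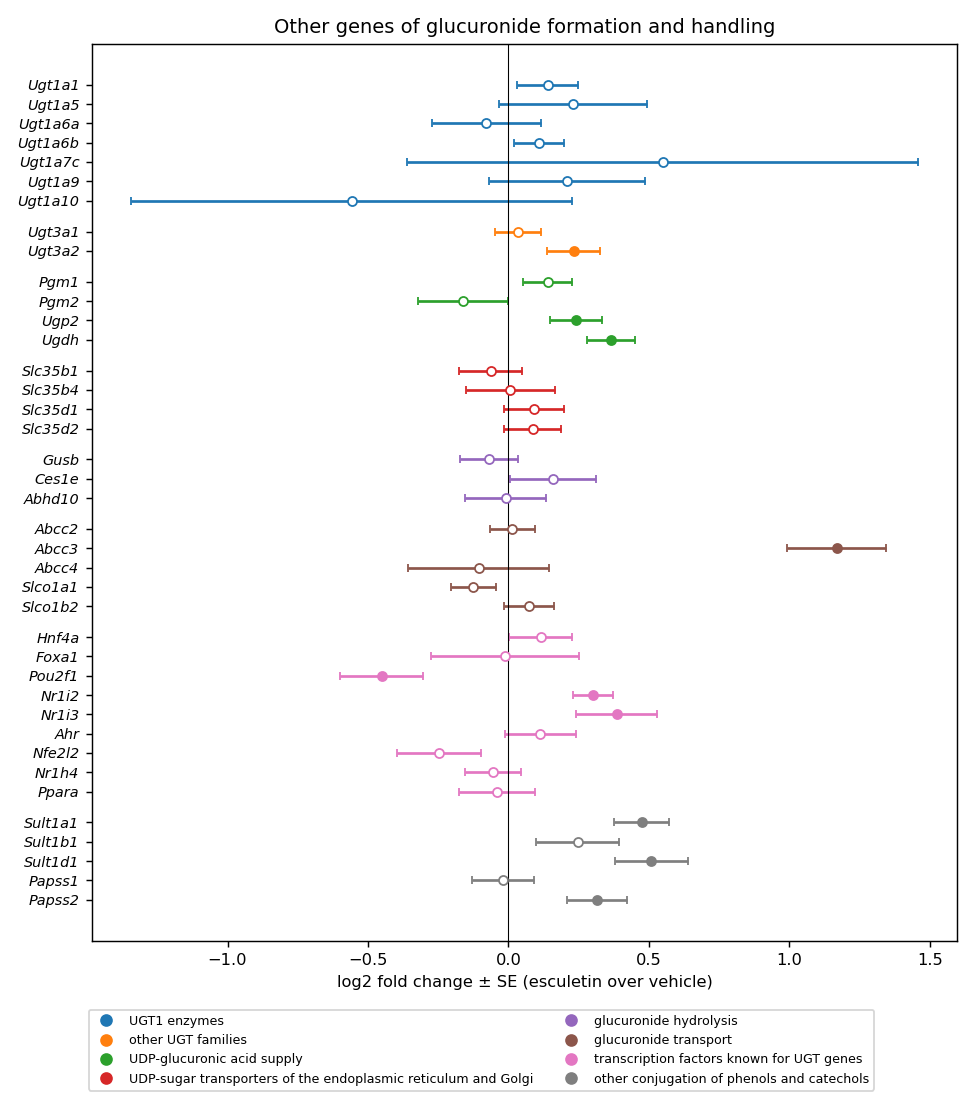
Log2 fold change (esculetin over vehicle, error bars ± SE) of 39 of the tested pathway genes, coloured by role, with filled points for an unadjusted p under 0.05. Abcc3 (1.17) stands apart at the right, 8 further filled points lie between 0.23 and 0.51, and Pou2f1 (-0.45) is the 1 filled point below 0.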

How the data were processed

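The authors sequenced liver mRNA as 150-bp read pairs, aligned them to GRCm39 with HISAT2 2.2.1 and counted reads per Ensembl gene with featureCounts, and they deposited raw counts for 6 libraries. Settings for strand and for reads with several places, and the annotation release, are not given in the sources used here (the processing notes also list mm10). Samples were grouped by GEO's labels. Of 55357 gene identifiers 54749 matched GENCODE vM39. Depth was 27957713 to 34920922 reads a library, for which 3 reads, the limit that a count of 0 allows, are 0.0859 to 0.107 CPM. Such limits cover counting error only.

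Groups were compared with edgeR 4.0.16 in R 4.3.3 (quasi-likelihood test, TMM, filterByExpr, 14433 genes, Benjamini-Hochberg adjustment, biological coefficient of variation 14.6%). Standard errors were derived from the F statistic of that test. Where counts call for edgeR, the study named limma; DESeq2 1.42.0, limma-voom 3.58.1, other scalings and filters, a replicate block and leaving out each library were alternatives. CPM per kb used the union of annotated exons. The fit was tested on simulated data. Replicates did not agree within sampling noise in any pair (chi-square per gene 26.6 or more).

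Named genes were all members, pathway genes with an unadjusted p under 0.05 or at the ends of a list, tested neighbours within 200 kb, and the 5 genes most like Ugt2b35. Pathway genes named outside this rule, such as Abcc2, Hnf4a, Pgm1 and Ugt1a1, were chosen after their values were seen. Members, lists and tests were chosen with earlier results of these data known. Identity was taken from pairwise alignments, and windows of 150 bases were searched on both strands of the genome for exact copies. Some genes of the pathway list are not reported here by name, though the counts over the list include them.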

Additional observations from a re-analysis of the deposited data

How the results depend on the processing

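Over all genes, 452 passed p under 0.05 with a fold change over 1.5. There were 776 with no filter on low counts, 1711 with no fold-change threshold, and 411 to 588 with one library left out. At adjusted p under 0.05 the counts were 6 as reported, 193 with DESeq2, 477 with no filter and 2 to 45 with one library left out (45 without vehicle replicate 1, 2 without vehicle replicate 2, 15 without vehicle replicate 3). With no filter 24638 genes were tested and the prior degrees of freedom rose from 5.72 to 107. The cause of these changes was not tested.

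Of the 8 members, 3 passed the first rule, and this became 1 with limma-voom, 5 with no fold-change threshold and 1 to 3 with one library left out (1, Ugt2b35, without vehicle replicate 2, vehicle replicate 3 or esculetin replicate 3). At adjusted p under 0.05 the count was 1 as reported, 3 with DESeq2 (Ugt2b5, Ugt2b35 and Ugt2b36), 5 with no filter and 0 to 2 with one library left out. It was 0 without vehicle replicate 2 and without each esculetin replicate in turn, and 2 without vehicle replicate 1 (Ugt2b35 and Ugt2b38). Of the pathway genes, 1 passed the first rule, against 10 with no fold-change threshold and 1 to 2 with one library left out, Ugt1a5 being added without vehicle replicate 1 and Sult1d1 without vehicle replicate 3. None passed the adjusted threshold in edgeR as reported (10 at an unadjusted p under 0.05), 4 did with DESeq2, 6 with no filter and 0 to 2 with one library left out (Abcc3 and Sult1a1 without vehicle replicate 1).

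Same-numbered replicates of the groups did not deviate together over all genes tested (correlations of -0.0689, -0.0108 and 0.00274 for replicates 1, 2 and 3). Correlations over all genes cannot show whether a pairing affects some of them. With the replicate block, 15 genes and 0 members passed the adjusted threshold.

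The order of the members in vehicle livers was the same with the longest transcript as length and with each vehicle library left out. The log2 ratio of the summed level, 0.21, lay between 0.15 and 0.27 with one library left out. Levels near 0 CPM for Ugt1a7c, Ugt1a10 and the pseudogenes are limited by depth.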
